A study of Mus musculus with 9 samples.

Results

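Calcium handling by the sarcoplasmic reticulum of heart muscle was followed through 10 genes, Ryr2, Atp2a2, Pln, Sln, Casq2, Hrc, Trdn, Jph2, Slc8a1 and Asph. They were chosen by name from the 30128 genes of an RNA-seq table of mouse left ventricle, with earlier results of these data known. All 10 have a row in the table. A filter on low values left 9 of them for testing, and Sln, which did not pass it, is described by its reads. The study asked what extra USP28, an enzyme that removes ubiquitin from proteins, does in the diabetic heart. It used db/db mice, which lack a working leptin receptor and become obese and diabetic. The first group is db/db given an adeno-associated virus of serotype 9 that carries USP28 behind the cardiac troponin T (cTnT) promoter, which is active in heart muscle cells (3 libraries, USP28 virus). The second is db/db given the empty virus, AAV9_null (3 libraries, null virus). The third is wild type, for which no virus is named (3 libraries, control). Genotype and virus therefore differ together between either db/db group and control, and their parts cannot be told apart. Neither age, sex nor the time after injection is named in the labels. Whether each library is a separate animal is not stated either, so a p-value measures the spread between these libraries, which may be technical.

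A heartbeat begins when calcium entering through the cell membrane opens ryanodine receptors, which release the much larger store of calcium held in the sarcoplasmic reticulum. Relaxation follows as the pump SERCA2a returns calcium to the store, under the brake of phospholamban or sarcolipin, while the sodium-calcium exchanger carries the rest out of the cell. Calsequestrin and the histidine-rich calcium binding protein hold calcium inside the store, triadin and junctin tie calsequestrin to the ryanodine receptor, and junctophilin keeps the store membrane close to the cell membrane.

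Libraries held 35970332 to 56497662 reads assigned to genes, and mitochondrially encoded genes took 15.7% to 19.9% of them. Levels are scaled RPKM, reads per kilobase of gene relative to the library total after a further scaling between libraries, so that levels of different genes are compared per length. The ventricular muscle markers summed to 37269 to 42964 with USP28 virus, 35837 to 55259 with null virus and 40327 to 45304 in control. Usp28 itself was at 9.71, 11.2 and 11.3 with USP28 virus, 10.0, 7.56 and 7.84 with null virus, and 12.6, 13.3 and 13.8 in control. USP28 virus and null virus overlapped in Usp28 and did not differ past the threshold (log2 0.35, adjusted p = 0.21), and both lay below every control library. Neither the species nor the sequence of the vector's USP28 is named in the labels. Null-virus replicate 1 stood apart from its group. Its genes departed from the group mean by 0.334 on the log2 scale on average, against 0.145 to 0.214 in the other 8 libraries, and it had the highest ventricular marker sum, 55259. Results that rest on it are given with and without it.

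Promoter sequences of 3 members, chosen by their results below, are shown first. Casq2 and Jph2 passed the test for lower levels in both db/db groups, and Pln passed in neither. Of the 10 members, 6 had an entry in the RefSeq promoter table on mouse build GRCm38.p6, namely Ryr2, Pln, Casq2, Hrc, Jph2 and Slc8a1. The Slc8a1 window begins at 81738388, far outside the counted span of the gene, which ends at 81649607, and is not described further. The Hrc window ends at 45335268, so its start also lies outside the counted span, which begins at 45335290, but close to it. The 250 bases before each start are read 5′ to 3′ on the strand of the gene, and capitals mark the motif letters found.
Casq2, chr3:102086165-102086414, + strand: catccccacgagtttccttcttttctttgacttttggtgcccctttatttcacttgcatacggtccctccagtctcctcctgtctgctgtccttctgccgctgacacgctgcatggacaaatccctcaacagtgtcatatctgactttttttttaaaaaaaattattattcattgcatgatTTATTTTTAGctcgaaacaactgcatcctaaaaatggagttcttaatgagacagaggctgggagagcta
Jph2, chr2:163397994-163398243, - strand: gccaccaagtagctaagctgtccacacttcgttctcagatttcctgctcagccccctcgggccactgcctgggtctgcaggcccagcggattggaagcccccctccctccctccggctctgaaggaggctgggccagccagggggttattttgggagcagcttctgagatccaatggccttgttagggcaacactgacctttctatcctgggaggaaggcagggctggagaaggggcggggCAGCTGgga
Pln, chr10:53337436-53337685, + strand: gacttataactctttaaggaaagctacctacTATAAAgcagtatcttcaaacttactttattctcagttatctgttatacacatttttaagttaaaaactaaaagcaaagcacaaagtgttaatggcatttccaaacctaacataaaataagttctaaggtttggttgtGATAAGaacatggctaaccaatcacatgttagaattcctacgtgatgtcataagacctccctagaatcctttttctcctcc
The capitals in Casq2 are a match to the MEF2 motif, 60 to 69 bases before the start, which 2.92% of 32851 promoters of this length hold. Those in Jph2 are the E-box CAGCTG, 4 to 9 bases before the start, held by 13% of promoters. The Pln promoter holds TATAAA at 214 to 219 bases (12.4% of promoters) and GATAAG, the core of GATA factor sites, at 76 to 81 bases (6.55% of promoters). Both strands were searched for the MEF2 motif, the CArG box, the TEAD core CATTCC and the 3 motifs spelled out for Jph2 and Pln, and no match overlapped another in the printed windows. Hrc also holds CAGCTG, 17 to 22 bases before its start. Ryr2, which like Pln passed in neither db/db group, holds none of the motifs searched for, so the motifs are not set against the responses. None of the 5 windows left holds the TEAD core (12.6% of promoters) or a CArG box (1.47%). Matches describe the letters and no binding was measured here.

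The comparison of null virus with control asks how db/db ventricle carrying an empty virus differs from wild type. Fitted levels of all 9 tested members were below control, 5 of them past the threshold of an adjusted p of 0.05: Atp2a2, Casq2, Jph2, Slc8a1 and Asph. In this comparison 22.2% of the 14104 genes tested were called, and 12% were called lower. All 3 null-virus libraries lay below all 3 control libraries for 8 of the 9 members, every one but Pln, where 21.6% of all genes did so. The median log2 difference over the 9 members was -0.88, against 0.01 over all genes. In bulk tissue, fewer cells of a type and less RNA per cell cannot be told apart. Beside this, 2 of 10 ventricular muscle markers were called lower and 0 higher. Markers of other cell types moved as well: 5 of 8 fibroblast and 3 of 6 macrophage markers were lower, and 3 of 6 endothelial markers were higher, with 0 in the other direction in each list. The summed macrophage markers were at 15.7 to 19.7 with null virus and above that in every control library, at up to 26.7, and the fibroblast sums overlapped, at 99.9 to 111 with null virus and 107 to 122 in control. The part of these markers in the members' values was not tested. The count of members called was 3 without control replicate 1, 2 or 3, where Atp2a2 and Slc8a1 no longer passed, and 8 without null-virus replicate 1. Calls over all genes moved likewise, from 3131 with all libraries to 2107, 1464 and 1459 without control replicate 1, 2 and 3. They were 4436 of 14003 without null-virus replicate 1.

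Set against null virus, USP28 virus shows what differs with the USP28 vector within db/db. None of the 9 members passed (0 in limma and 0 in limma voom), and 2, Asph and Trdn, had an unadjusted p under 0.05. Over all genes 0.425% were called and 16.7% had an unadjusted p under 0.05. The 2 groups did not overlap for Asph, which was higher with USP28 virus, and for Trdn, which was lower, where 10.9% of all genes were non-overlapping and higher and 12.3% lower. Asph (log2 0.72, adjusted p = 0.0053) and Ryr2 (log2 -0.38, adjusted p = 0.038) passed, in opposite directions, without null-virus replicate 1. In that fit 915 of 14003 genes passed, against 60 of 14104 with all libraries.

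USP28 virus against control gave 6 of the 9 members lower and 0 higher: Atp2a2, Casq2, Hrc, Trdn, Jph2 and Asph. Over all genes 11.9% were called and 6.58% were called lower. All 9 members lay below control in every USP28-virus library, as did 24.3% of all genes, and the members' median log2 difference was -0.72. Beside this, 0 of 10 ventricular markers were called, 3 of 8 fibroblast and 1 of 6 macrophage markers were lower, and 3 of 6 endothelial markers were higher, and their part was not tested. The count of members called was 2 to 3 when any one USP28-virus or control library was left out, and 9 without null-virus replicate 1. That library enters this comparison through the shared estimate of the spread, and also through the scaling, the filter and the adjustment over genes. Calls over all genes moved likewise, from 1674 with all libraries to 365 to 1035 without a USP28-virus or control library. They were 4084 of 14003 without null-virus replicate 1. These 3 comparisons share their libraries in pairs, so their values for a gene are not independent of each other.

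**Figure D1:**
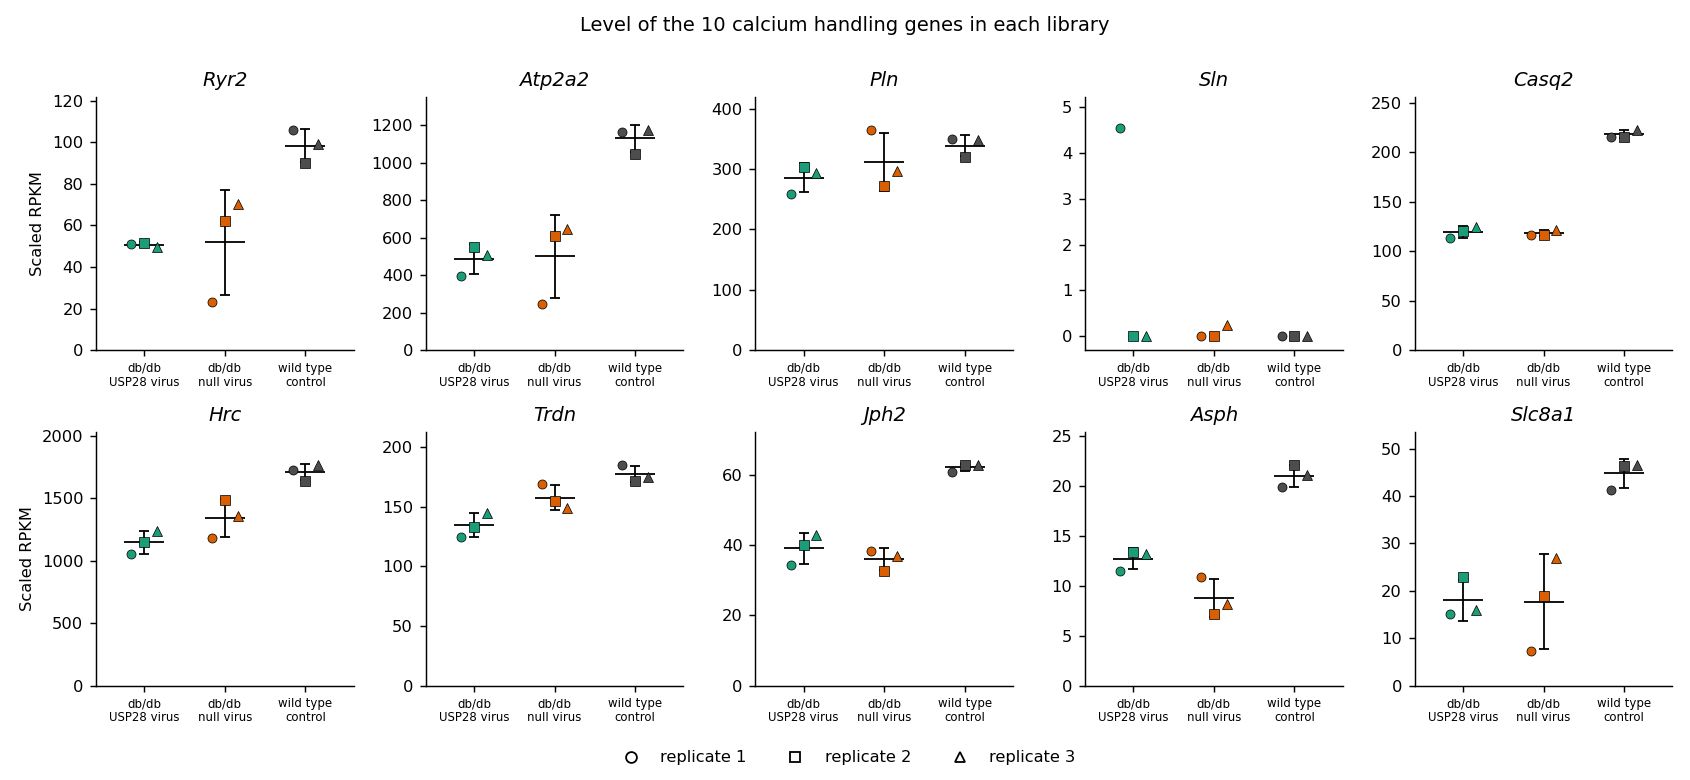
Level of each of the 10 genes in scaled RPKM (vertical axis, linear from 0), with 1 point per library, a horizontal bar for the group mean and whiskers of 1 SD over 3 libraries; Sln is shown without a mean. For Casq2 the control libraries sit at 216 to 223 and all 6 db/db libraries at 113 to 125, while Ryr2, Atp2a2 and Slc8a1 are lowest in null-virus replicate 1.

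Uptake into the store depends first on Atp2a2 (chr5:122453513-122502225), which encodes the SERCA2 calcium pump and was the second most abundant member by group mean. Atp2a2 stood at 397, 552 and 510 scaled RPKM with USP28 virus, at 246, 609 and 649 with null virus, and at 1163, 1049 and 1176 in control. Every db/db library was below every control library, the group means were 43.1% of control with USP28 virus and 44.4% with null virus, and null-virus replicate 1 was the lowest of all 9. The level averaged 501 ± 222 with null virus and 1129 ± 69.8 in control (SD, n = 3 each; log2 -1.29, SE 0.33, adjusted p = 0.026). With USP28 virus it averaged 487 ± 80 (log2 -1.23 against control, adjusted p = 0.047). Against null virus the difference was 0.07 on the log2 scale (95% interval -0.69 to 0.83). Without null-virus replicate 1, Atp2a2 was lower in null virus than in control by a log2 difference of -0.84 (adjusted p = 0.0025), and USP28 virus stood at -0.38 relative to null virus (adjusted p = 0.13). Either call against control was lost when any one control library was left out (adjusted p = 0.068 to 0.081 for null virus and 0.11 to 0.14 for USP28 virus). The USP28-virus call was lost as well without USP28-virus replicate 1, 2 or 3 (adjusted p = 0.17, 0.087 and 0.11) or null-virus replicate 2 (0.051). With no filter on low values neither call passed (0.058 for null virus and 0.1 for USP28 virus), nor did null virus with the 2 groups alone (0.067) or USP28 virus with library totals alone (0.11).

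Pln (chr10:53337686-53345999) encodes phospholamban, which slows the SERCA pump until it is phosphorylated, and it differed least from control among the 9. Levels were 258, 304 and 294 scaled RPKM with USP28 virus, 365, 272 and 296 with null virus, and 349, 319 and 348 in control. Null virus reached above control in replicate 1 and lay below it in the other two libraries, and USP28 virus lay below control in all 3. Neither difference passed (log2 -0.13, SE 0.13, adjusted p = 0.51 for null virus against control; log2 -0.25, adjusted p = 0.26 for USP28 virus against control), and USP28 virus minus null virus was -0.12 (95% interval -0.42 to 0.19). Without null-virus replicate 1, USP28 virus against control passed at the same log2 difference (adjusted p = 0.042), and null virus against control was at -0.25 (adjusted p = 0.054). In the mouse GENCODE M21 annotation, exons of Cep85l and Gm47644 on the other strand share 1785 bases with those of Pln. The Pln exons there hold 2759 bases, against 2480 counted by the authors. No source used here states the strand setting of the read counting, so reads from the 2 strands in the shared bases cannot be told apart. Cep85l was at 3.48 to 7.84 scaled RPKM over the 9 libraries, far below Pln.

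Sln (chr9:53850164-53854560) encodes sarcolipin, the SERCA inhibitor of atrial and skeletal muscle. It was counted in USP28-virus replicate 1 with 334 reads (4.54 scaled RPKM) and in null-virus replicate 3 with 14 reads (0.24 scaled RPKM). The other 7 libraries held 0 reads, which allows up to 0.041 to 0.076 scaled RPKM at 3 reads, for counting error only. The sum of the atrial muscle markers was highest in USP28-virus replicate 1 too, and Nppa made up 1274 of that 1465. Myl7, the atrial regulatory light chain, was at 89.0 scaled RPKM in USP28-virus replicate 1, at 4.74 in null-virus replicate 3 and at 0 to 0.981 in the other 7. Myl4, the atrial essential light chain, was at 50.1 and 3.46 in those 2 libraries and at 0.149 to 1.54 in the others. Nppa, atrial natriuretic peptide, was at 1274 in USP28-virus replicate 1 and at 79.7 to 334 elsewhere. The 7 atrial markers together summed to 1465, 180 and 208 with USP28 virus, 117, 348 and 395 with null virus, and 197, 231 and 161 in control, and Bmp10 stayed at or below 0.0427 in every library. Not all markers followed Sln. Kcnj3 was highest in null-virus replicate 2, at 46.1 against 29.3 in USP28-virus replicate 1. Kcnj5 had the order of Sln at the top, at 13.5 in USP28-virus replicate 1 and 12.1 in null-virus replicate 3. Its span over the libraries was small, at 7.74 to 13.5. Dkk3 was at 9.01 in USP28-virus replicate 1, 2.56 in control replicate 1 and 1.91 in null-virus replicate 3. The 7 skeletal muscle markers in the table, of which 3 passed the filter, summed to 3.27 to 5.23 in each library. Sln was therefore not compared between groups. The part of atrial tissue in the other members' values was not tested, and each tested member's USP28-virus differences were also fitted without replicate 1.

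**Figure D2:**
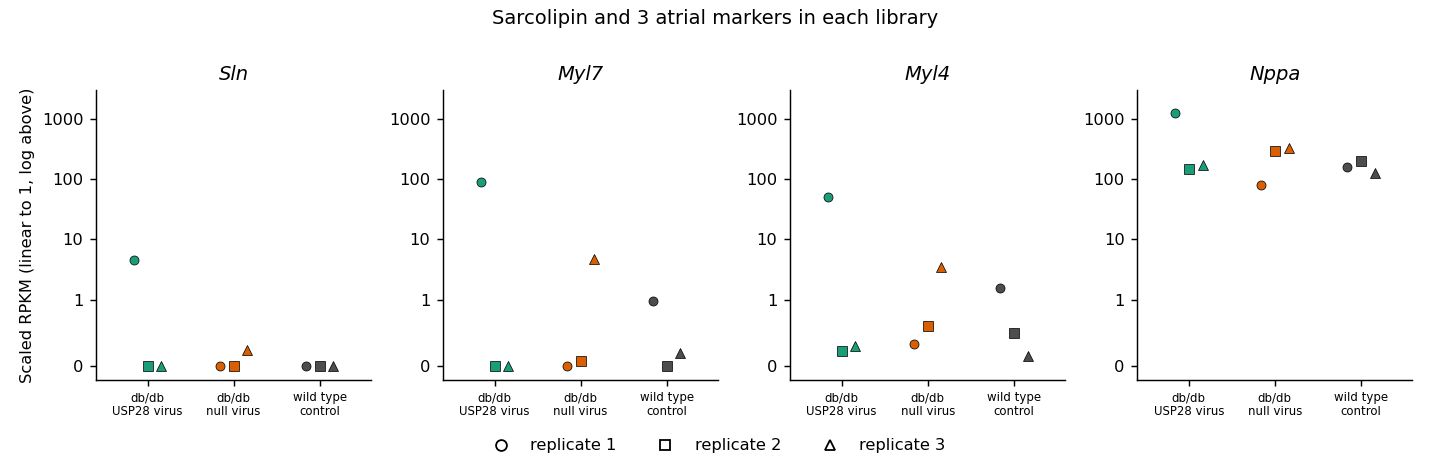
Sln and 3 atrial markers in scaled RPKM (vertical axis, linear from 0 to 1 and logarithmic above), with 1 point per library in the 3 groups. USP28-virus replicate 1 is highest in all 4 panels (4.54 for Sln, 89.0 for Myl7), and null-virus replicate 3 is next in Sln, Myl7, Myl4 and Nppa.

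Release runs through Ryr2 (chr13:11553103-12106945), the cardiac ryanodine receptor. Its levels were 51.1, 51.7 and 49.6 scaled RPKM with USP28 virus, 23.1, 61.9 and 70.4 with null virus, and 106, 90.1 and 99.1 in control. All 6 db/db libraries lay below control. The 3 USP28-virus libraries spanned 49.6 to 51.7, while null virus spanned 23.1 to 70.4. Null virus averaged 51.8 ± 25.2 and control 98.3 ± 7.8 (SD, n = 3 each), a log2 difference of -1.07 that did not pass (SE 0.35, adjusted p = 0.058). USP28 virus averaged 50.8 ± 1.07, at log2 -0.95 against control (adjusted p = 0.11). Whether these differences passed depended on single null-virus libraries and on the test. With all libraries kept, null virus against control passed with limma voom (log2 -1.08, adjusted p = 0.037). USP28 virus against control passed in limma with those 2 groups alone in the fit, which leaves out every null-virus library (adjusted p = 0.00092). Without null-virus replicate 1, null virus minus control was -0.57 (adjusted p = 0.0019) and USP28 virus minus control was -0.95 (adjusted p = 0.00029), and without null-virus replicate 3 null virus minus control was -1.38 (adjusted p = 0.027). Between USP28 virus and null virus the direction turned as well, at 0.13 with all libraries (95% interval -0.67 to 0.92) and -0.38 without null-virus replicate 1 (adjusted p = 0.038).

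Casq2 (chr3:102086415-102146514), cardiac calsequestrin, the main calcium-binding protein of the store and the gene whose MEF2 match is printed above, had the smallest standard error of the 9 members. It was at 113, 121 and 125 scaled RPKM with USP28 virus, 116, 117 and 122 with null virus, and 216, 216 and 223 in control. The highest db/db library was at 125 and the lowest control library at 216. Null virus was at 54.2% of the control mean (118 ± 3.08 against 218 ± 4.41, SD, n = 3 each; log2 -0.88, SE 0.09, adjusted p = 0.00095). USP28 virus was at 54.8% (120 ± 5.97; log2 -0.87, adjusted p = 0.0023). The difference between USP28 virus and null virus was 0.02 on the log2 scale with a 95% interval of -0.19 to 0.22. Both calls against control held in all 19 alternatives run.

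Hrc (chr7:45335290-45338974), the histidine-rich calcium binding protein of the store, was the most abundant member in every library. Its levels were 1052, 1153 and 1237 scaled RPKM with USP28 virus, 1181, 1483 and 1362 with null virus, and 1723, 1641 and 1766 in control. Both db/db groups lay below control without overlap, and they overlapped each other. USP28 virus averaged 1148 ± 92.7 and control 1710 ± 63.3 (SD, n = 3 each; log2 -0.58, SE 0.13, adjusted p = 0.023), a call lost without any one USP28-virus or control library (adjusted p = 0.058 to 0.11) and with library totals alone as the scaling (0.084). Null virus averaged 1342 ± 152 and did not pass against control (log2 -0.35, adjusted p = 0.076), though it did without null-virus replicate 1 (log2 -0.27, adjusted p = 0.046). USP28 virus minus null virus was -0.22 (95% interval -0.51 to 0.07).

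Among the genes of the junction, Trdn (chr10:33083483-33476709) encodes triadin, the anchor between calsequestrin and the ryanodine receptor. It was at 125, 133 and 145 scaled RPKM with USP28 virus, 169, 155 and 149 with null virus, and 185, 172 and 175 in control. The 3 groups did not overlap, with USP28 virus lowest and control highest. USP28 virus averaged 134 ± 9.89 and control 178 ± 6.81 (SD, n = 3 each; log2 -0.40, SE 0.1, adjusted p = 0.035). That call was lost without any one USP28-virus or control library (adjusted p = 0.066 to 0.14), narrowly without null-virus replicate 2, with library totals alone (0.056), with no filter (0.06) and with the replicate number as a block (0.07). Null virus averaged 158 ± 10.3 and did not pass against control (log2 -0.17, adjusted p = 0.24), though it did narrowly without null-virus replicate 1 (log2 -0.23). USP28 virus minus null virus was -0.23 (SE 0.1, unadjusted p = 0.049, adjusted p = 0.3 in limma), lower in 3 of 3 libraries.

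Jph2 (chr2:163336242-163397993), junctophilin 2, holds the store membrane against the transverse tubule, and its promoter carries the E-box shown above. Its values were 34.4, 40.2 and 42.9 scaled RPKM with USP28 virus, 38.5, 32.7 and 37.1 with null virus, and 61.0, 62.9 and 62.8 in control. Every db/db library was at or below 42.9 and every control library at or above 61.0, and the db/db groups overlapped. Null virus averaged 36.1 ± 3.01 against 62.2 ± 1.06 in control (SD, n = 3 each; log2 -0.79, SE 0.11, adjusted p = 0.0025), and USP28 virus averaged 39.2 ± 4.37 (log2 -0.67 against control, adjusted p = 0.009). The calls against control held in all 19 alternatives run, with adjusted p of at most 0.014 and 0.043. USP28 virus minus null virus was 0.11 (95% interval -0.13 to 0.36).

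Asph (chr4:9448069-9669344) is a locus with several products, among them aspartate beta-hydroxylase and junctin, the partner of triadin, which gene-level values cannot separate. It was at 11.5, 13.4 and 13.2 scaled RPKM with USP28 virus, 10.9, 7.22 and 8.16 with null virus, and 19.9, 22.1 and 21.1 in control. The 3 groups did not overlap, and USP28 virus lay between null virus and control in every library. Null virus averaged 8.77 ± 1.93 and control 21.0 ± 1.11 (SD, n = 3 each; log2 -1.27, SE 0.15, adjusted p = 0.0014), a call that held in all 19 alternatives. USP28 virus averaged 12.7 ± 1.04, 60.4% of the control mean, and was below control (log2 -0.72, adjusted p = 0.019). That call was lost without USP28-virus replicate 1 or 3 or control replicate 2 or 3 (adjusted p = 0.057 to 0.088). Relative to null virus it was higher by 0.55 on the log2 scale (SE 0.15, 95% interval 0.21 to 0.89, unadjusted p = 0.0053, adjusted p = 0.13 in limma) and did not pass over all genes; without null-virus replicate 1, the highest of its group, it passed at 0.72 (adjusted p = 0.0053). Exons of Clvs1 and Gm25677 on the other strand share 2368 bases with Asph, and Clvs1 was at 0.745 to 1.42 scaled RPKM.

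Slc8a1 (chr17:81388691-81649607), the sodium-calcium exchanger NCX1 of the cell membrane, is the main route by which calcium leaves the cell. It was at 15.1, 22.9 and 15.9 scaled RPKM with USP28 virus, 7.19, 18.9 and 27.0 with null virus, and 41.3, 46.4 and 46.5 in control. The db/db libraries all lay below control, and null-virus replicate 1 was again lowest. Null virus averaged 17.7 ± 9.94, 39.5% of the control mean of 44.7 ± 2.98 (SD, n = 3 each; log2 -1.53, SE 0.41, adjusted p = 0.03). That call was lost without control replicate 1, 2 or 3 (adjusted p = 0.064, 0.088 and 0.086), with no filter (0.068) and with the 2 groups alone (0.071), and without null-virus replicate 1 the difference was -0.98 (adjusted p = 0.01). USP28 virus averaged 18.0 ± 4.29 (log2 -1.33 against control, adjusted p = 0.067, not past the threshold), and it passed at the same log2 difference without null-virus replicate 1 (0.0024) or 3 (0.039), with limma voom (0.042) and with the 2 groups alone (0.0031). USP28 virus minus null virus was 0.19 (95% interval -0.73 to 1.12) and -0.35 without null-virus replicate 1 (adjusted p = 0.35). In the mouse GENCODE M21 annotation, exons of AC122399.1 and Gm11096 on the other strand share 304 bases with those of Slc8a1, and those of Gm43361 share 83 bases with Atp2a2. The Slc8a1 exons there hold 18807 bases, against 2934 counted by the authors, and whether the shared bases lie in the counted exons was not tested.

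**Figure D3:**
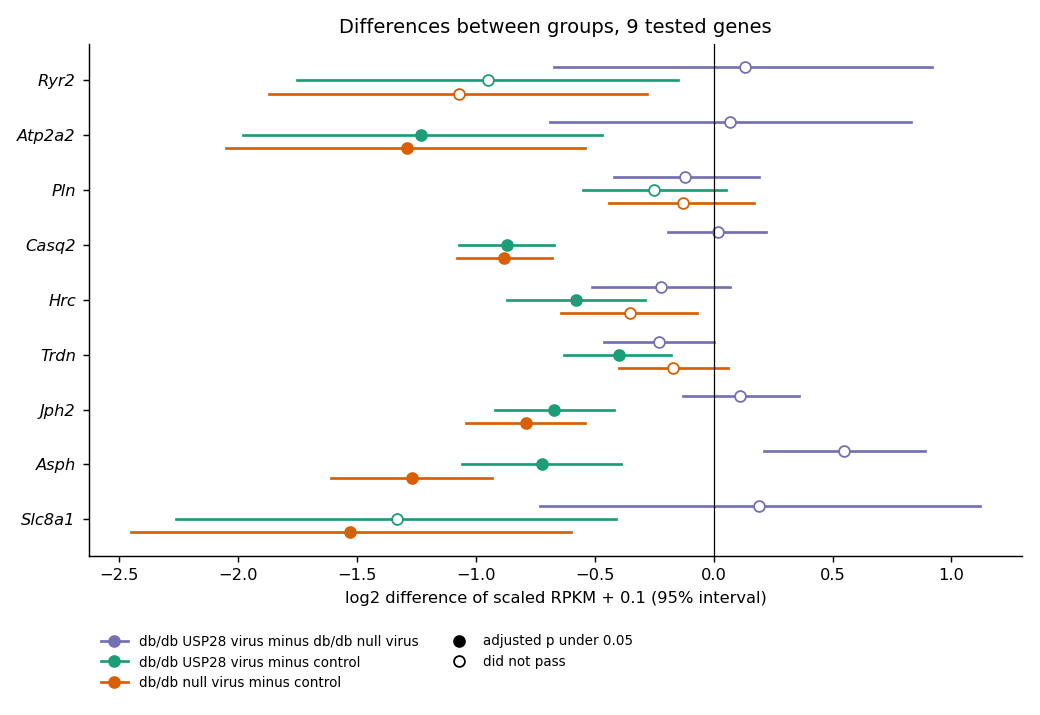
Difference between groups for the 9 tested genes on the log2 scale (horizontal axis), as the limma estimate with its 95% interval, for USP28 virus minus null virus, USP28 virus minus control and null virus minus control; filled points passed an adjusted p of 0.05. The points against control lie left of 0 for all 9 genes, from -0.13 to -1.53 for null virus, and no point for USP28 virus minus null virus is filled.

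Null-virus replicate 1 departed from its group in some members and not in others. Relative to the mean of the other two null-virus libraries, Ryr2 was at a ratio of 0.35, Atp2a2 at 0.391 and Slc8a1 at 0.314. Casq2 was at 0.967, Jph2 at 1.1, Trdn at 1.11 and Hrc at 0.83, while Pln was at 1.28 and Asph at 1.42. Of the 10 ventricular markers, 7 were highest of all 9 libraries in that library, among them Myl2, the ventricular regulatory light chain, at 3685 scaled RPKM, against 1524 to 1981 in the other 8. Ttn, titin, was the 1 marker lowest there, at 11.9 scaled RPKM, against 17.1 to 29.7 in the other 8. The pump, the release channel and the exchanger were thus low together in this one library, while the remaining 6 tested members lay between 0.83 and 1.42. The cause was not tested.

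Ratios within a library do not depend on the scaling between libraries, and 9 pairs of members were compared in 3 comparisons. Pln over Atp2a2, the message of the brake relative to that of the pump, was 0.65, 0.55 and 0.576 with USP28 virus, 1.49, 0.447 and 0.457 with null virus, and 0.3, 0.304 and 0.296 in control. All 6 db/db libraries were above control, which spanned 0.296 to 0.304. The log2 difference was 1.16 for null virus minus control and 0.98 for USP28 virus minus control (two-sided exact permutation p = 0.1 in each, the smallest that 3 against 3 libraries allow; 0.3 adjusted over 27 tests). Without null-virus replicate 1 it was 0.59 for null virus minus control, and USP28 virus minus null virus, -0.19 with all libraries, was 0.39. Ryr2 over Atp2a2 was 0.129, 0.0936 and 0.0974 with USP28 virus, 0.094, 0.102 and 0.108 with null virus, and 0.0909, 0.0859 and 0.0842 in control. All 6 db/db libraries were above control in this ratio, by log2 differences of 0.28 with USP28 virus and 0.22 with null virus (exact permutation p = 0.1 in each). Slc8a1 over Atp2a2 overlapped in every comparison. The ratio of Trdn to Ryr2 was 2.45, 2.57 and 2.92 with USP28 virus, 7.3, 2.51 and 2.11 with null virus, and 1.75, 1.91 and 1.77 in control, above control in all 6 db/db libraries. Groups did not overlap for 4 of the 9 ratios in null virus against control, for 0 in USP28 virus against null virus and for 5 in USP28 virus against control. The first 2 counts were 7 and 5 without null-virus replicate 1, and the third was 7 without USP28-virus replicate 1 or control replicate 2. Each of the 9 ratios has Atp2a2 or Ryr2 as its denominator, and these genes varied together over the libraries (Pearson's r of log2 levels 0.97). The ratios are therefore not independent of each other, and no share over other pairs of genes was taken.

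**Figure D4:**
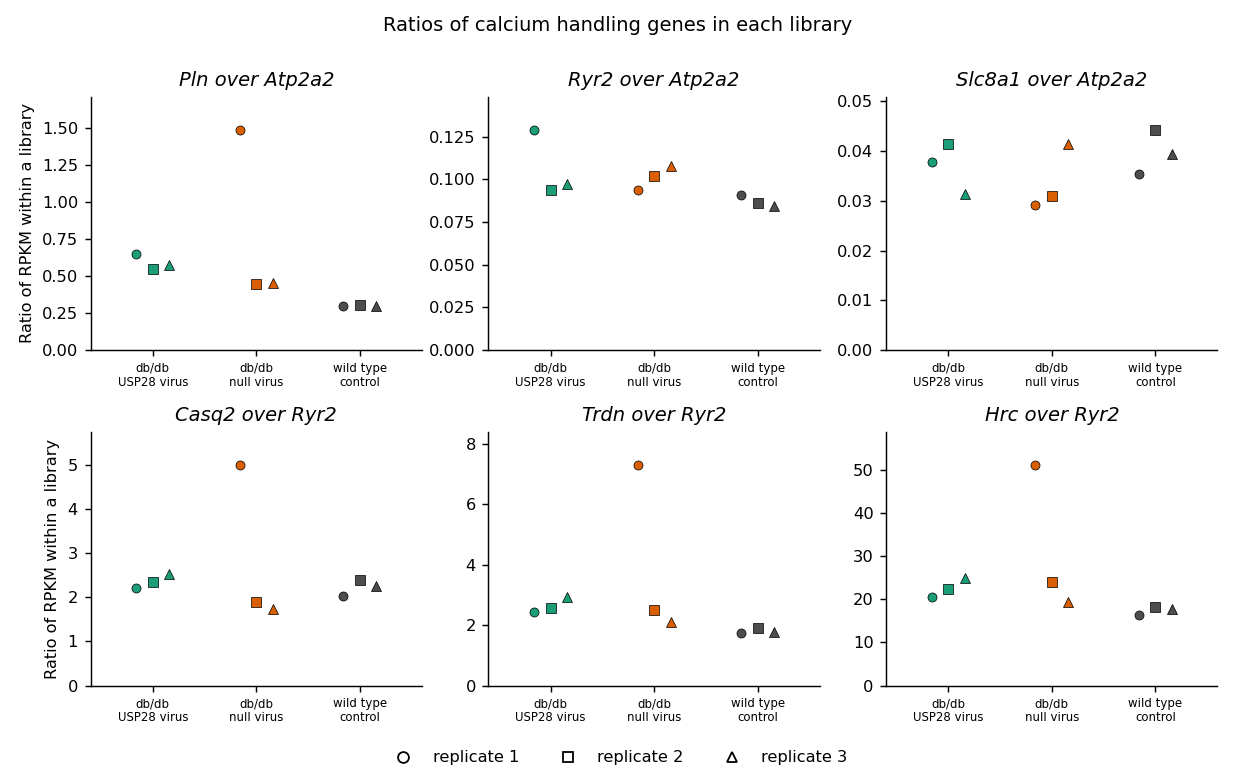
Ratio of RPKM between 2 members within a library (vertical axes, linear from 0), with 1 point per library in the 3 groups, for 6 of the 9 pairs tested. Pln over Atp2a2 is 0.296 to 0.304 in control and 0.447 to 1.49 in the db/db libraries, and null-virus replicate 1 is far above the rest in 4 of the panels.

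The order of the levels was the same in the groups but for one exchange. In control it ran Hrc, Atp2a2, Pln, Casq2, Trdn, Ryr2, Jph2, Slc8a1, Asph and Sln, from high to low, and no neighbours overlapped. In both db/db groups Trdn stood above Casq2, in 3 of 3 libraries of each, without overlap. With null virus 3 pairs of neighbours overlapped over the libraries: Atp2a2 and Pln, Ryr2 and Jph2, and Slc8a1 and Asph, each in the listed order in 2 of 3 libraries. With USP28 virus no neighbours overlapped down to Asph, and Sln is at 0 in 2 of 3 libraries. Places in the order rest on the authors' gene lengths, which for some members are shorter than in the mouse GENCODE M21 annotation. They are 2934 bases against 18807 for Slc8a1, 16849 against 28790 for Ryr2, 4514 against 9352 for Trdn and 2480 against 2759 for Pln.

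Genes with the pattern most like a member's were found by Pearson's r of log2 levels over the 9 libraries, which share the group differences and null-virus replicate 1, so r is a description. For Ryr2 these were Inppl1 (0.997), a lipid phosphatase, Dpp8 (0.993), a peptidase, Usp25 (0.988), a deubiquitinating enzyme, and Nf2 (0.985), merlin. For Atp2a2 they were Ttn (0.993), titin, Zfp651 (0.992) and Ppp2r5c (0.992), a regulatory subunit of protein phosphatase 2A. Casq2 was nearest to Csnk2a1 (0.993), the catalytic subunit of casein kinase 2, Ak4 (0.991), a mitochondrial adenylate kinase, Narf (0.991) and Mrps22 (0.99), a mitochondrial ribosomal protein. For Pln the highest values were lower, at 0.955 for Timmdc1, a complex I assembly factor, 0.95 for Isoc2a and for Ppp1r7, and 0.941 for Cog2, a Golgi protein.

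Other calcium handling genes were taken from 6 lists of 80 names, of which 78 are in the table and 67 passed the filter. Null virus against control gave 20 lower and 1 higher of the 67 (12 called in all without control replicate 2 or 3), where 12% of all genes were called lower and 22.2% in either direction. Calls over all genes were 3131 with all libraries, and 1464 and 1459 without control replicate 2 and 3. Calcium signalling had the most, with 8 of 13 lower, 0 higher and a median log2 difference of -0.60, against 0.01 over all genes. Camk2d, the main calcium/calmodulin kinase of heart, averaged 1.75 ± 0.234 with null virus and 3.75 ± 0.356 in control (log2 -1.06, adjusted p = 0.002). Camk2b, another form of that kinase (log2 -1.47), Ppp3r1, the regulatory subunit of calcineurin (log2 -0.78), and Prkar2a, a regulatory subunit of protein kinase A (log2 -1.23), were lower too. In the lumen and junction list 3 of 11 were lower, led by Srl, sarcalumenin, a calcium-binding protein of the store lumen, at 53.0 ± 6.22 with null virus and 111 ± 6.19 in control (log2 -1.07, adjusted p = 0.0015). The other two were Ank1, whose small muscle form anchors the store to the myofibril (log2 -0.38), and Casq1, the skeletal muscle calsequestrin, at a low level (0.898 ± 0.36 against 3.39 ± 2.04, log2 -1.68).

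Of 12 sarcolemmal genes, 5 were lower and 0 higher with null virus, beside 12% lower over all genes. They included Cacna2d1, an auxiliary subunit of the L-type calcium channel (log2 -0.98, adjusted p = 0.0026), Atp1b1, the beta subunit of the sodium pump (log2 -0.85), Atp2b1, a plasma membrane calcium pump (log2 -0.72), and Rrad, an inhibitor of the L-type channel (log2 -0.62). In the release list 2 of 12 were lower, among them Akap6, a scaffold for protein kinase A at the ryanodine receptor (log2 -0.47), and the list's median was 0.14, so its share is near that of all genes. The uptake and leak list had 1 of 7 in each direction: Ppp1r3a, a phosphatase targeting subunit of the store membrane, was lower at 5.66 ± 2.18 against 10.8 ± 1.18 (adjusted p = 0.029), and Atp2a3, the SERCA3 pump of endothelial and blood cells, was higher at 2.49 ± 0.716 against 1.18 ± 0.0756 (log2 0.98, adjusted p = 0.012). Beside Atp2a3, 3 of 6 endothelial markers were higher with null virus and 0 lower, and their summed level was 86.6 to 106 with null virus and 72.4 to 83.7 in control. Fitted levels of all 5 blood markers were below control (median log2 -0.84), with 0 past the threshold. Their sums overlapped, at 129 to 197 with null virus and 140 to 523 in control. The part of either cell type in Atp2a3 was not tested. Mitochondrial calcium genes had 1 of 12 lower, also near the share of all genes: Mcu, the pore of the uniporter (log2 -0.58).

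USP28 virus against null virus gave 0 of the 67 past the threshold in limma and 0 in limma voom. An unadjusted p under 0.05 was reached by 5 and 12 of them. Over all 14104 genes tested, 16.7% did so in limma, a larger share than 5 of 67, and 2530 genes did so in limma voom. There were 3 of the 67 past the threshold when null-virus replicate 1 was left out, where 915 of all 14003 genes tested passed. Against control, USP28 virus had 16 lower and 2 higher, where 6.58% of all genes were called lower and 11.9% in either direction. Of these 7 were in calcium signalling (all lower, among them Camk2d at log2 -0.77 and Prkaca, the catalytic subunit of protein kinase A, at -0.61), and 4 were in the sarcolemma list, including Cacna2d1 (log2 -0.81) and Rrad (log2 -0.71). Srl was lower again at 51.8 ± 6.16 (log2 -1.10, adjusted p = 0.0034). Mcu (log2 -0.54) and Letm1, an inner membrane ion exchanger (log2 -0.42), were the 2 mitochondrial genes. The 2 higher genes were Atp2a3 (2.86 ± 0.315, log2 1.21) and Itpr3, an inositol trisphosphate receptor (2.01 ± 0.161 against 0.845 ± 0.231, log2 1.18, adjusted p = 0.048). The total of 18 was 2, 7 and 3 without USP28-virus replicates 1, 2 and 3, 9, 3 and 3 without control replicates 1, 2 and 3, and 29 without null-virus replicate 1, and library totals alone as the scaling gave 3. Calls over all genes, 1674, were in the same order 365, 789 and 607, then 1035, 474 and 445, then 4084, and 921.

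**Figure D5:**
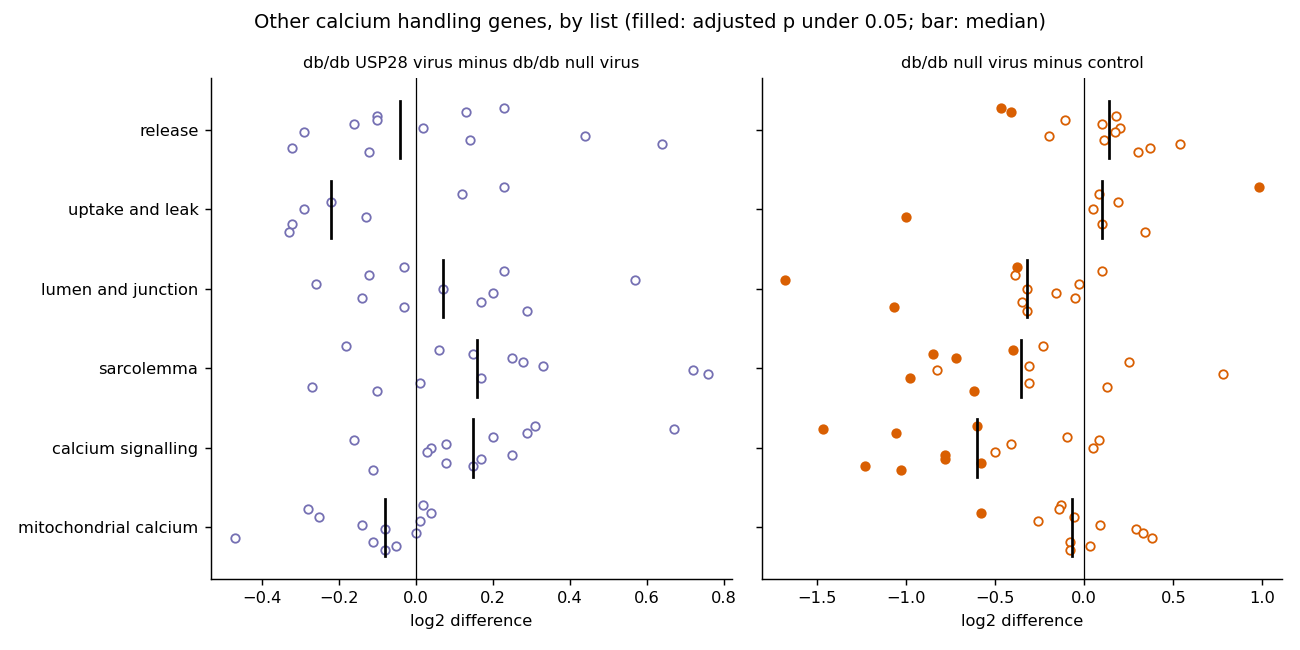
Log2 difference of each tested gene of the 6 lists (1 point per gene, 67 in all) for USP28 virus minus null virus and for null virus minus control, with a vertical bar at each list's median and filled points for an adjusted p under 0.05. In null virus minus control the calcium signalling list lies furthest left (median -0.60, 8 of 13 filled), and no point is filled in USP28 virus minus null virus.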

How the data were processed

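Polyadenylated RNA of mouse left ventricle was sequenced as directional paired-end libraries, per the labels' protocols. The deposited RPKM are the authors' values per gene; HISAT2, DESeq2 and GRCh38, a human build, are named in the submitters' processing notes, while 25482 of 30128 gene spans equal those of mouse GENCODE M21, so coordinates are on GRCm38. Multiplied by gene length, 99.9839% of values above 0 are whole reads within 0.01, including all values of the 10 members.

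RPKM were scaled between libraries by an unweighted trimmed mean of log ratios (30% of ratios and 5% of levels trimmed). The filter kept genes whose RPKM reached 0.5 in 3 or more libraries. They were tested in limma 3.58.1 (R 4.3.3; trend and robust) on log2(scaled RPKM + 0.1), which understates changes of low genes, with all 9 libraries in 1 fit and Benjamini-Hochberg adjustment within each comparison. The procedure was tested on simulated reads with the same relative spread in all genes and libraries, so with no library set apart as null-virus replicate 1 is here. Ratios had exact permutation tests.

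The members and lists were chosen with earlier results of these data known. Named beyond the members are up to 4 called genes per list and comparison, and the 4 genes most alike, with gene models left out; 3 genes that this rule names are not reported here. Rows for Strit1 and Mcub were found under the older names Gm34302 and Ccdc109b. No other column was used. Alternatives were other scalings, filters and pseudocounts, the 2 groups alone, the replicate block, limma voom on recovered reads, scaling without mitochondrial genes, and leaving out 1 library at a time.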

Additional observations from a re-analysis of the deposited data

How the results depend on the processing

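Against control, the 9 tested members kept a negative log2 difference in all 19 alternatives. Genes called in null virus minus control, 3131, were 2054 with no filter, 1683 with the 2 groups alone and 1459 to 4436 with 1 library left out. For USP28 virus minus null virus, 60 were 31 with library totals alone (87.1% of them higher, against 63.3%), 10 with no filter, 189 with limma voom, 0 with the 2 groups alone (1768 at an unadjusted p under 0.05) and 0 to 915 with 1 library left out. For USP28 virus minus control, 1674 were 921 with library totals alone (66.4% higher, against 44.6%), 928 with no filter, 3804 with the 2 groups alone and 365 to 4084 with 1 library left out. Members called in null virus minus control, 5, were 3 with no filter or with the 2 groups alone and 3 to 8 with 1 library left out. For USP28 virus minus null virus they were 0 to 2, and for USP28 virus minus control, 6, they were 3 with library totals alone and 2 to 9. Other list genes in null virus minus control, 21, were 12 with the 2 groups alone and 12 to 28 with 1 library left out. They were 0 to 3 in USP28 virus minus null virus, and in USP28 virus minus control, 18, were 3 with library totals alone, 7 with no filter and 2 to 29. Ratios without overlap were 4 to 7, 0 to 5 and 5 to 7 in the 3 comparisons with 1 library left out. In USP28 virus minus null virus the direction turned without null-virus replicate 1 for Ryr2 (-0.38 to 0.43 with 1 library left out), Atp2a2 (-0.38 to 0.33), Slc8a1 (-0.35 to 0.60) and Pln (-0.20 to 0.01), without USP28-virus replicate 2 for Atp2a2 (-0.02) and without USP28-virus replicate 3 for Casq2 (-0.02 to 0.06). Leaving out null-virus replicate 1 gave the highest counts of called genes in all 3 comparisons. The causes were not tested.

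Libraries with the same number did not deviate together over all tested genes, with correlations of -0.03 to 0.06. Such correlations cannot exclude a pairing that acts weakly or on few genes, so whether the numbers pair the libraries is not known. With the replicate number as a block, 2743, 0 and 1286 genes were called in null virus minus control, USP28 virus minus null virus and USP28 virus minus control, with 5, 0 and 5 members, Trdn being lost in the last (adjusted p = 0.07).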
